A study of Papio anubis with 24 samples.

Results

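Wide methylated peaks, stretches of 1000 bp or more that were enriched for methylated cytosine, were described in olive baboon (Papio anubis) embryonic stem cells (ESC) and induced pluripotent stem cells (iPSC). They were chosen by width alone from the deposited peak list of each cell type, on the numbered autosomes and the unplaced scaffolds, with chromosome X and the mitochondrial sequence left out. The rule gave 185 wide peaks among 162545 in scope for ESC (0.114%) and 906 among 43833 for iPSC (2.07%). That is 1091 peaks of the 211395 in the whole series. Width chose these peaks, so their number, widths, fold enrichments and q-values are given as a description.

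DNA was profiled by MeDIP-seq, in which sheared genomic DNA is pulled down with an antibody against 5-methylcytosine and sequenced beside input DNA that was not pulled down. There were 24 libraries, 6 of each kind: pulled-down and input DNA of ESC (lines B4 and B15) and the same of iPSC (lines 160-2 and M14939#3), each line in 3 replicates. All 4 lines were grown on feeder cells, and no treatment, age or strain is given. Of the 6 libraries titled M14939#3, 5 have a different number behind the hash in the cell line label, and both spellings are iPSC. The deposited data are 1 peak list per cell type, so no value exists per library or per line, no replicate error can be given, and cell type cannot be told apart from line. Every difference between ESC and iPSC below is a difference between these lists, with no test. The cell type labels could not be checked, as the lists hold no expression.

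Cytosine methylation in mammals sits mainly at CpG dinucleotides, where DNA methyltransferases copy and place it and TET enzymes start its removal. Most CpGs of pluripotent cells are methylated, while CpG islands at gene starts are mostly free of it. Reprogramming to iPSC resets much of the methylation of the starting cell, and differences from ESC have been described in parts of the genome. The MeDIP antibody captures DNA in proportion to its methylated CpGs, so a peak marks a stretch rich in methylated CpGs, not a percentage of methylation. A wide peak is a run of such enrichment without a break that the peak caller recognised. Neighbouring peaks of either list were never closer than 102 bp, so a wide peak can hold unenriched stretches shorter than that.

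Wide peaks held 233 kb of ESC sequence, 0.578% of the bases in ESC peaks, and 1263 kb of iPSC sequence, 9.05% of the bases in iPSC peaks. Their median width was 1157 bp in ESC (quartiles 1085 and 1326 bp) and 1252 bp in iPSC (quartiles 1097 and 1535 bp). The iPSC list reached further. It had 249 peaks of 1500 bp or more, and ESC had 18. Peaks of 3000 bp or more numbered 14 in iPSC and 2 in ESC. The lists differ in length in the opposite direction, since ESC had more peaks in scope and still had fewer wide ones.

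**Figure D1:**
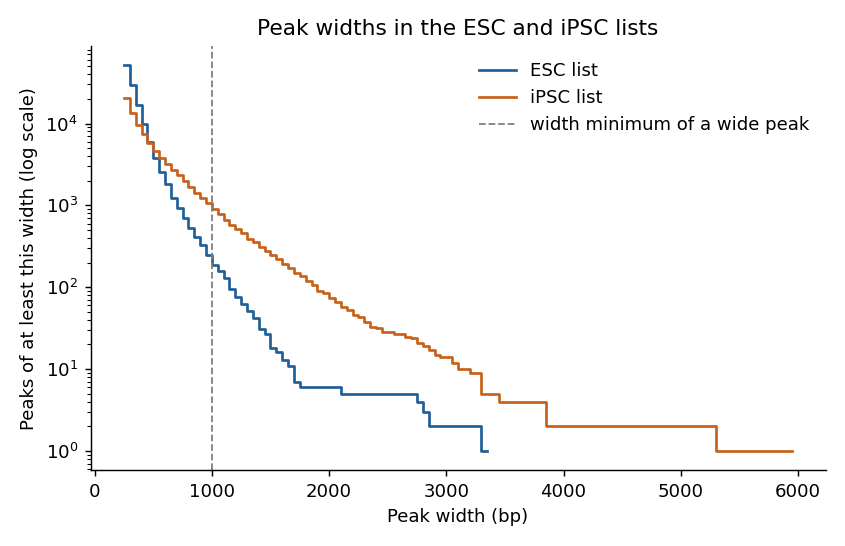
Number of peaks (vertical axis, log scale) at least as wide as the width on the horizontal axis (bp), for the ESC and iPSC lists on autosomes and unplaced scaffolds, with the dashed line at the 1000 bp minimum. Up to 450 bp the ESC line is the higher one, and at 1000 bp it stands at 185 peaks against 906 for iPSC.

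Within 10 bp above it lay 2 ESC and 28 iPSC peaks, and within 10 bp below it 13 and 25. The median fold enrichment of the iPSC peaks was 2.85 just inside and 2.77 just outside. For the ESC peaks it was 1.83 inside and 1.70 outside. An ESC peak was overlapped by 13 of the 28 iPSC peaks just inside and by 19 of the 25 just outside, against 66.3% of all iPSC peaks. An iPSC peak was overlapped by 2 of the 2 ESC peaks inside and 12 of the 13 outside, against 18.2% of all ESC peaks. These overlap counts are small, and no change at the threshold is read from them. The number of ESC peaks dropped across the threshold, and that of iPSC peaks was alike on both sides. An iPSC peak of exactly 1000 bp on chromosome 8 (7420172 to 7421171) overlapped no ESC peak. On chromosome 19 the lists had peaks just short of the threshold at nearly the same place, in ESC from 38672929 to 38673927 and in iPSC from 38672966 to 38673964, sharing 962 bp.

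The widest iPSC peak ran for 5977 bp on chromosome 1 (51484739 to 51490715), with a fold enrichment of 3.57 at its summit. The ESC list had a single peak within it, of 467 bp near its far edge, which covered 7.81% of its bases. The next widest, 5292 bp near the start of chromosome 1 (2835964 to 2841255), held 3 ESC peaks on 21.7% of its bases. A peak of 3837 bp on chromosome 13 (9360420 to 9364256) held 2 ESC peaks on 37.9% of its bases. Another of 3821 bp on chromosome 15 (2249979 to 2253799) overlapped no ESC peak, and the nearest one lay 2882 bp away. The fifth, 3427 bp on an unplaced scaffold, also overlapped none. Thus each of the 5 widest iPSC peaks had most of its length outside the ESC list.

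The widest ESC peaks were matched far more fully. On chromosome 4 the widest, 3380 bp (162833490 to 162836869), shared 89.7% of its bases with a single iPSC peak of 3042 bp. Others on chromosome 4 were 2799 bp (113081918 to 113084716) and 2715 bp (113203794 to 113206508) wide, and iPSC peaks covered 80.3% and 97.3% of them. A peak of 2829 bp on an unplaced scaffold was covered to 92.3% by 2 iPSC peaks. The exception was the second widest, 3262 bp on another unplaced scaffold, where 3 iPSC peaks of at most 500 bp covered 35.1%.

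The lists were next compared through the peaks of the other list that each wide peak overlapped by at least 1 bp. Of the wide ESC peaks, 165 of 185 overlapped an iPSC peak, which is 89.2% (exact Clopper-Pearson 95% interval 83.8 to 93.3%), against 18.2% of all ESC peaks in scope. Of the wide iPSC peaks, 596 of 906 overlapped an ESC peak, 65.8% (62.6 to 68.9%), and the background over all iPSC peaks was 66.3%. The second share is at its background and is no result about wide iPSC peaks. The intervals reflect counting error alone, as if peaks were independent. A wider peak meets more peaks by its width alone, so the summit, a single base per peak, was used as well.

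The summit lay inside a peak of the other list for 151 wide ESC peaks, 81.6% (75.3 to 86.9%), against 17.7% of all ESC peaks. For iPSC the count was 462, 51.0% (47.7 to 54.3%), against 64.6% of all iPSC peaks. Wide ESC peaks therefore stood above their list and wide iPSC peaks below theirs. In ESC the share was 12.2% under 250 bp, 27.1% from 250 bp to under 500 bp, 57.0% from 500 bp to under 1 kb and 81.6% among wide peaks. In iPSC the shares over the same classes were 65.3%, 66.9%, 53.8% and 51.0%. Wide ESC peaks were the ESC class with the highest share of summits in the other list, and wide iPSC peaks the iPSC class with the lowest. The last step in iPSC was small, as the interval from 500 bp to under 1 kb was 52.2 to 55.4% and overlaps that of wide peaks. At 1500 bp or more the iPSC share was 53.0%.

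**Figure D2:**
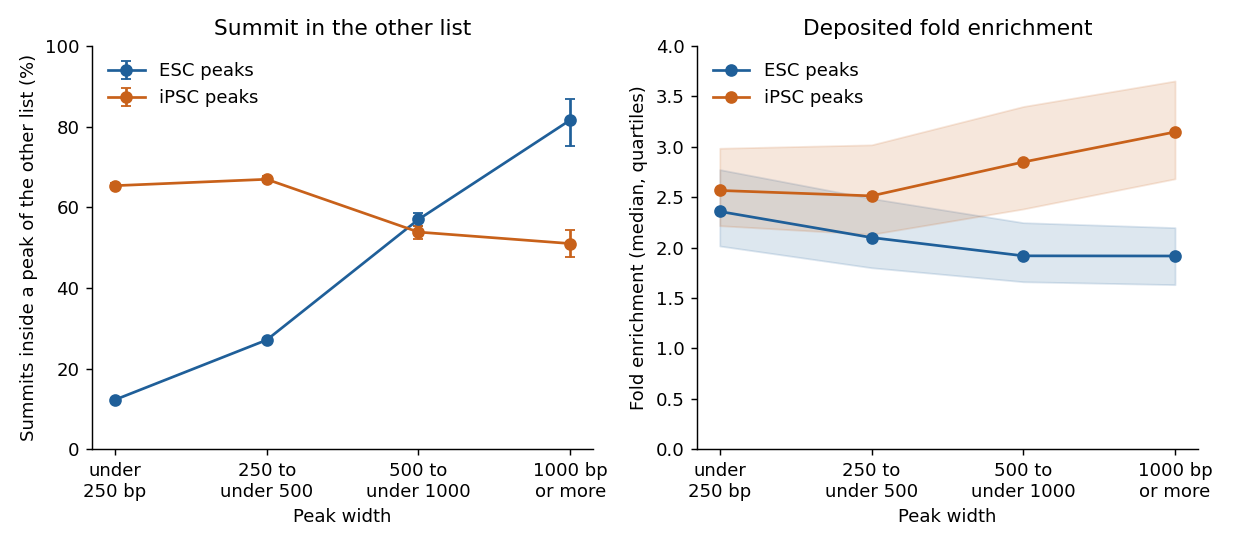
Left, percentage of peaks whose summit lies inside a peak of the other list, by peak width in bp, with bars for exact Clopper-Pearson 95% intervals. Right, median deposited fold enrichment at the summit for the same width classes, with shading from the lower to the upper quartile. In the widest class iPSC is highest at 3.15, and ESC stands at 1.92, as it does from 500 bp to under 1 kb.

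Some wide peaks of each list spanned several peaks of the other. Of the wide ESC peaks 39 covered 2 or more iPSC peaks, 21.1% (15.4 to 27.7%), against 0.0824% of all ESC peaks. Of the wide iPSC peaks 279 covered 2 or more ESC peaks, 30.8% (27.8 to 33.9%), against 1.17% of all iPSC peaks. Width alone raises these shares above the background. The iPSC share was 7.69% with a −log10 q of at least 5 in both lists, and 0.442% with the ESC list cut to its peaks of highest q at the length of the iPSC list. For these cuts the share over all iPSC peaks was not computed, and the 1.17% belongs to the uncut lists. By count, 20 wide ESC peaks covered no iPSC peak, 126 covered 1, 38 covered 2 and 1 covered 3. Among wide iPSC peaks 310 covered no ESC peak, 317 covered 1, 239 covered 2, 33 covered 3, 6 covered 4 and 1 covered 5. In all, 205 iPSC peaks lay on wide ESC peaks and 923 ESC peaks on wide iPSC peaks.

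**Figure D3:**
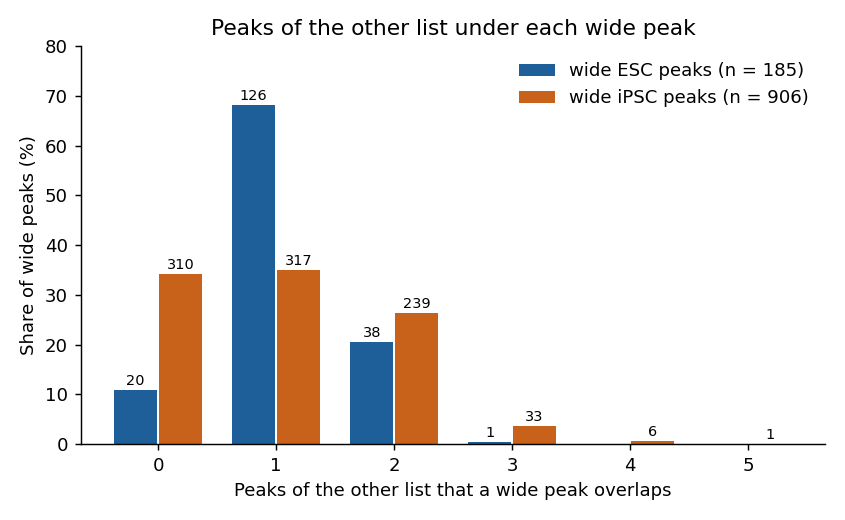
Share of wide ESC (n = 185) and wide iPSC peaks (n = 906) in percent, by the number of peaks of the other list that each overlaps, with the count of wide peaks above each bar. Most wide ESC peaks (126) overlap 1 iPSC peak, while wide iPSC peaks are spread over none (310), 1 (317) and 2 (239).

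The iPSC peak that covered most ESC peaks lay on chromosome 12 (119424232 to 119427305), where 5 ESC peaks covered 69.1% of its 3074 bp. On chromosome 6 a peak of 3257 bp (3148057 to 3151313) held 4 ESC peaks on 37.3% of its bases. Another, 2444 bp on an unplaced scaffold, also held 4. Among placed ESC peaks the widest of those covering 2 iPSC peaks was on chromosome 14 (4037534 to 4039214), 1681 bp wide and covered to 77.4%. In these examples a single peak of one list corresponded to several separated peaks of the other.

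Coverage by bases separated the lists more than the counts did. Peaks of iPSC covered 66.1% of the bases in wide ESC peaks, with a median of 74.9% per peak, and at least 90% of 63 of the 185 (34.1%). Over all ESC peaks 18.5% of the bases were covered, and 9.43% of peaks to at least 90%. Peaks of ESC covered 32.0% of the bases in wide iPSC peaks, with a median of 25.5% per peak, and at least 90% of 59 of the 906 (6.51%). Over all iPSC peaks these were 53.5% and 38.9%, so wide ESC peaks were covered more, and wide iPSC peaks less, than their lists. In peaks of 500 bp to under 1 kb they were 47.0% and 24.5% in ESC and 40.9% and 18.2% in iPSC. The next narrower class thus differed from its list in the same direction for both lists, and coverage changed with peak width below 1 kb as well. Where a wide iPSC peak had 1 ESC partner, that partner had a median width of 371 bp. Where a wide ESC peak had 1 iPSC partner, the partner's median width was 1036 bp. Single partners of wide ESC peaks were thus close to them in width at the median, and those of wide iPSC peaks were narrower.

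ESC coverage of wide iPSC peaks was lower in the middle than to either side of it. Wide iPSC peaks were split into 10 equal bins from start to end, and the bases under an ESC peak were counted in each. Coverage was 28.4% in the first bin, 41.3% in the second and 36.9% in the third, 27.4% and 27.6% in the middle pair, and 34.2%, 40.3% and 29.2% in the last bins. The bins to either side of the middle (the second, the third, the eighth and the ninth) averaged 38.2% against 27.5% for the middle pair, a difference of 10.7 percentage points. This split was chosen after the profile was seen. Peak by peak, the side bins were more covered in 362 wide iPSC peaks, the middle in 175, and the values were equal in 369, of which 311 had neither covered. In iPSC peaks of 500 bp to under 1 kb the same averages were 45.0% and 44.3%.

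Wide ESC peaks as a whole had no such dip. iPSC coverage along them averaged 65.9% in the side bins and 69.1% in the middle pair, with the middle more covered in 62 peaks, the side bins in 41, and equal values in 82. Within 5 Mb of a chromosome end (87 peaks) the side bins averaged 68.3% and the middle 66.9%, and away from the ends (82 peaks) 68.1% and 76.5%. Just outside the wide peaks the lists also differed. In the first 200 bp beyond the edges, 12.6% of bases beside wide ESC peaks lay in iPSC peaks, while 2.37% of bases beside wide iPSC peaks lay in ESC peaks. Over the whole 1 kb to each side of wide peaks the values were 9.66% and 4.53%. For peaks of 500 bp to under 1 kb the first 200 bp had 7.84% beside ESC and 5.24% beside iPSC peaks. From 250 bp to under 500 bp these were 3.04% and 8.64%, so the order depended on peak width.

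**Figure D4:**
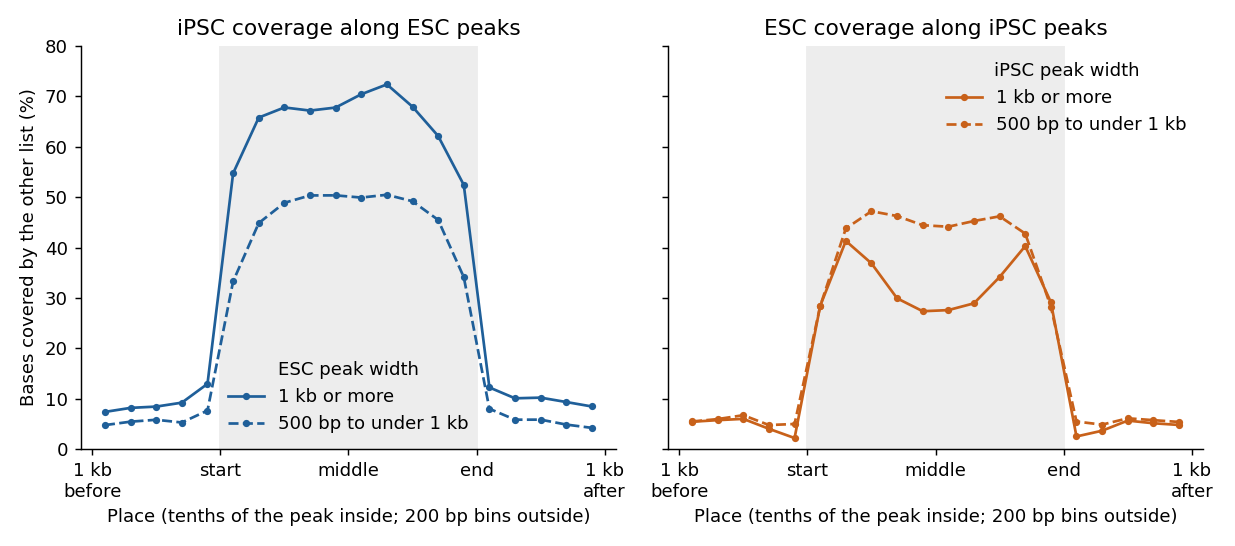
Percentage of bases covered by peaks of the other list along ESC peaks (left) and iPSC peaks (right), in 10 equal bins inside the peak (grey) and 200 bp bins over 1 kb outside it, for wide peaks (solid) and peaks of 500 bp to under 1 kb (dashed). ESC coverage of wide iPSC peaks is highest in the second (41.3%) and ninth (40.3%) bins and lowest inside the peak in the middle pair, while iPSC coverage of wide ESC peaks is highest in the inner bins.

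Where a wide peak held several peaks of the other list, the choice of such peaks itself requires a gap between these. In the 279 wide iPSC peaks that held 2 or more ESC peaks, the widest gap between these had a median of 308 bp (quartiles 194.5 and 496.5 bp, highest 2291 bp), or 21.1% of the width at the median. The first ESC peak began a median of 52 bp from the iPSC start and the last ended a median of 47 bp from the iPSC end. In the 39 wide ESC peaks with several iPSC peaks the widest gap had a median of 181 bp, and the distances from start and end were 23 and 20 bp. With a single partner, the partner's centre lay in the middle 1/3 of the peak in 122 of 317 wide iPSC peaks (38.5%) and in 86 of 126 wide ESC peaks (68.3%).

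The summit, the base of highest enrichment, was placed on a scale from 0 at the start of the peak to 1 at its end. Its median was 0.502 in wide ESC and 0.505 in wide iPSC peaks, so neither list leaned to a side at the median. Of 10 equal bins, the second held 32 ESC (17.3%) and 130 iPSC summits (14.3%), and the ninth held 29 (15.7%) and 141 (15.6%), the highest counts in both lists. The first bin held 3 ESC and 32 iPSC summits and the last 8 and 36, the lowest counts. The bins between the second and the ninth held 7.57 to 11.9% each in ESC and 9.49 to 11.1% each in iPSC. In peaks under 1 kb the fullest bins were the middle pair, with about 20.8% each in ESC and 23.4% each in iPSC. In peaks of 500 bp to under 1 kb alone, the third and the eighth bins were the fullest. They held 16.9% and 15.9% in ESC and 17.9% and 15.7% in iPSC. Summits away from the middle were thus not particular to wide peaks. The median distance from the summit to the nearer edge was 328 bp in ESC and 330 bp in iPSC, almost the same in both lists despite their different widths.

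The deposited fold enrichment, the authors' own value at the summit, set the wide peaks of the lists apart from their own lists in opposite directions. Wide ESC peaks had a median fold of 1.92 (highest 4.25), below the 2.27 of all ESC peaks. Wide iPSC peaks had 3.15 (highest 6.69), above the 2.58 of all iPSC peaks. Peaks of 500 bp to under 1 kb had a median fold of 1.92 in ESC and 2.85 in iPSC. The lower fold was thus not particular to wide ESC peaks. The median −log10 q was 10.7 in wide ESC and 20.5 in wide iPSC peaks, against 7.30 and 8.50 in their lists. Within the wide peaks width and fold were unrelated, with a Spearman's rho of 0.013 over 185 ESC and 0.027 over 906 iPSC peaks, given as a description of peaks that share their libraries.

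The fragments behind each value could be worked back from the fold and the −log10 p-value of each peak. At the summit of wide ESC peaks the median pileup was 166 fragments over a local background of 85.9, where all ESC peaks had 70 over 29.5. Wide iPSC peaks had 111 over 34, and all iPSC peaks 68.3 over 26. The iPSC pileups are fragment counts scaled down by a common factor, and the ESC pileups are unscaled. The ESC and iPSC pileups are therefore not in the same unit, and 166 and 111 are not to be compared as fragment counts. Since libraries differ in depth, each value was also divided by the lowest background of its list (12.0 for ESC and 10.2 for iPSC). On that scale the background at wide peaks was 7.17 in ESC and 3.32 in iPSC, against 2.46 and 2.54 over the lists. ESC peaks of 500 bp to under 1 kb had a background of 5.64 and a pileup of 11.3 on that scale, and wide ESC peaks a pileup of 13.8. Wide ESC peaks were thus on sites of high local background as well as high pileup, and so were those of the next narrower class. What part the background has in the fold differences was not tested.

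The same sites were then set side by side, each wide peak beside the overlapping peak of the other list with the highest fold. This comparison was chosen after other values were seen. At the 596 wide iPSC peaks with an ESC partner the median fold was 3.17 in iPSC and 1.55 in ESC, and iPSC was higher at 587 (98.5%). For iPSC peaks of 500 bp to under 1 kb the medians were 2.82 and 1.64, with iPSC higher at 92.9%. For iPSC peaks under 500 bp they were 2.55 and 2.12, with iPSC higher at 74.9%. The fold gap thus widened with peak width and was not particular to wide peaks. The pileup at the wide sites, over the lowest background, had a median of 11.2 in iPSC and 15.1 in ESC, and iPSC was higher at 57 of 596 (9.56%). The local background was 3.42 in iPSC and 9.70 in ESC, and iPSC was higher at 9 (1.51%). Higher iPSC fold with higher ESC pileup and background was not particular to wide peaks: under 500 bp the iPSC pileup was higher at 3.19% and the iPSC background at 3.80% of sites.

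At the 165 wide ESC peaks with an iPSC partner the fold was 1.86 in ESC and 2.60 in iPSC, with ESC higher at 21 (12.7%). Their pileup over the lowest background was 14.3 in ESC and 10.3 in iPSC, and their background 7.80 and 3.91, with ESC the higher in background at 161. ESC peaks under 500 bp had the same order, with folds of 2.08 in ESC and 2.60 in iPSC and the ESC background higher at 96.3%.

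The ESC peaks that wide iPSC peaks met had lower folds than other overlapping ESC peaks. The 923 had a median width of 333 bp, a fold of 1.49 and a −log10 q of 4.56. The 28580 ESC peaks met only by narrower iPSC peaks had a fold of 2.08 and a −log10 q of 9.41. The overlap of wide iPSC peaks accordingly depended on how deep the ESC list went. When the ESC list was cut to the 44434 peaks of highest q, as many as iPSC has, 7.84% of wide iPSC peaks still overlapped an ESC peak (6.17 to 9.78%), against 28.6% of all iPSC peaks. By width the shares were 33.0% under 250 bp, 26.6% from 250 bp to under 500 bp and 14.0% from 500 bp to under 1 kb. With a −log10 q of at least 5 in both lists the overlap of wide iPSC peaks was 35.3%. The share over all iPSC peaks at that q was not computed.

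Some stretches were wide in both cell types. Of the wide peaks, 71 of each list overlapped a wide peak of the other, in 71 pairs of 1 with 1, which is 38.4% of the wide ESC and 7.84% of the wide iPSC peaks. A wide peak of the other list was overlapped by 0.568% of all ESC and 0.468% of all iPSC peaks, and by 4.89% and 1.59% of those of 500 bp to under 1 kb. The pairs shared a median of 1125 bp (843 to 3033 bp), with median widths of 1222 bp in ESC and 1378 bp in iPSC. The iPSC peak was the wider in 46 pairs and had the higher fold in 67, with median folds of 3.01 in iPSC and 1.69 in ESC. Their summits lay a median of 62 bp apart, and 33 pairs had them within 50 bp. Of the 68 placed pairs 35 were within 5 Mb of a chromosome end.

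The pair with most shared bases was the widest ESC peak on chromosome 4 and its iPSC partner (162833837 to 162836878), sharing 3033 bp with folds of 1.84 and 3.01. Its summits were at opposite ends, 2416 bp apart, at 0.866 of the ESC and 0.0539 of the iPSC peak. The next lay on chromosome 4 as well, the ESC peak from 113203794 to 113206508, with 2642 bp shared. An unplaced scaffold followed with 2355 bp. Another on chromosome 4, from 113081918 to 113084716 in ESC, shared 2247 bp with folds of 2.72 in ESC and 5.38 in iPSC. The fifth, on chromosome 16 (74637577 to 74639674 in ESC), shared 2078 bp with folds of 1.72 and 3.98. In each of these 4 placed pairs whose positions are given, the iPSC fold was the higher.

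Distances to the other list were taken for the wide peaks without a partner. The 14 placed wide ESC peaks that overlapped no iPSC peak had the nearest one a median of 14366 bp away (3779 to 274124 bp), and 9 of them were over 10 kb away. All placed ESC peaks without a partner had a median of 19127 bp. The 285 placed wide iPSC peaks without an ESC peak had a median distance of 3973 bp (179 to 39171 bp), with 50 under 1 kb and 46 over 10 kb, and the median over all placed iPSC peaks without one was 3557 bp. The ESC list is the denser one, which shortens distances to it.

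The most isolated wide ESC peak was on chromosome 4 (46127732 to 46129023), 1292 bp wide, with a fold of 2.46 and no iPSC peak within 274124 bp. The others were on chromosome 15 (75531371 to 75532395), 72444 bp from an iPSC peak, and on chromosome 4 (16324015 to 16325195), 33578 bp from one. Among wide iPSC peaks the most isolated was on chromosome 2 (67447328 to 67448640), 1313 bp wide with a fold of 4.77. The nearest ESC peak was 39171 bp away and the nearest other iPSC peak 354462 bp. It was followed by peaks on chromosome 3 (150962146 to 150963269), at 34327 bp, and on chromosome 6 (164831218 to 164832367), at 32092 bp.

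Of the wide peaks 169 ESC and 852 iPSC were placed on an autosome, and the rest lay on unplaced scaffolds, 16 ESC peaks on 13 scaffolds and 54 iPSC peaks on 43. The lists had 0.0652 wide ESC and 0.329 wide iPSC peaks per Mb of autosome. Chromosome 19 was the densest in both, with 16 in ESC (0.311 per Mb) and 44 in iPSC (0.856 per Mb). Chromosome 2 was the sparsest in both, with 5 in ESC (0.0266 per Mb) and 20 in iPSC (0.106 per Mb). Chromosome 10 stood second in iPSC at 0.679 per Mb. There were 5.04 placed wide iPSC peaks for each wide ESC peak. The ratio ran from 1.88 on chromosome 6, with 17 wide ESC peaks, to 11.7 on chromosome 17, with only 3.

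**Figure D5:**
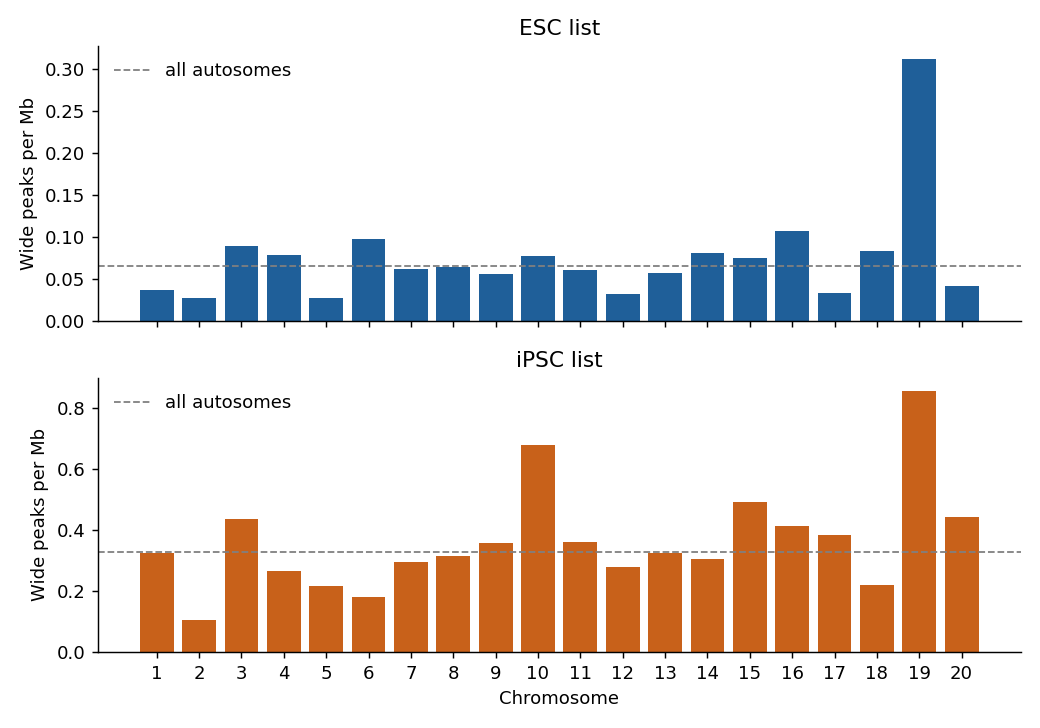
Wide peaks per Mb on each autosome in the ESC list (top) and the iPSC list (bottom), each with its own vertical scale; the dashed lines mark the density over all autosomes. Chromosome 19 has the tallest bar in both lists, at 0.311 and 0.856 per Mb.

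Wide peaks were also counted against all peaks of their chromosome. Per 1000 peaks of the same chromosome, wide peaks numbered 1.11 in ESC over all autosomes. The highest values were on chromosomes 6 (2.19) and 19 (2.18) and the lowest on chromosome 20 (0.444, from 3 wide peaks). Of the 17 wide ESC peaks on chromosome 6, 9 lay between 135 and 136 Mb. In iPSC wide peaks numbered 20.99 per 1000, highest on chromosomes 15 (29.5) and 17 (28.2) and lowest on chromosome 2 (13.3). On this scale chromosome 19 was among the highest in ESC but, at 16.6, below the value over all autosomes in iPSC, and chromosome 2 was again the lowest in iPSC.

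Chromosome ends held many of the wide peaks. Within 5 Mb of an end lay 87 of 169 placed wide ESC peaks, 51.5% (43.7 to 59.2%), against 21.7% of all placed ESC peaks. For iPSC the count was 378 of 852, 44.4% (41.0 to 47.8%), against 32.2% of all placed iPSC peaks. These regions make up 7.71% of the autosomal span. Within 2 Mb of an end lay 58 wide ESC (34.3%) and 210 wide iPSC peaks (24.6%), against 10.7% and 16.5% of all placed peaks. Among peaks of 500 bp to under 1 kb, 42.2% in ESC and 47.1% in iPSC lay within 5 Mb, and 26.3% and 24.8% within 2 Mb. Wide ESC peaks thus had the highest share near the ends of their list, while in iPSC the share was no higher than in the next narrower class. The ends are taken from the last peak of either list, as no chromosome lengths were used.

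Wide iPSC peaks also lay closer together. The nearest other wide peak was a median of 238 kb away in iPSC and 1353 kb away in ESC, as their numbers differ. Within 100 kb of another lay 299 wide iPSC peaks (35.1%) and 32 wide ESC peaks (18.9%). In windows of 1 Mb, 501 held a wide iPSC peak and 27 held 5 or more, while 129 held a wide ESC peak and 2 held 5 or more.

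The fullest windows, singled out after their values were seen, differed between the lists. In ESC it was 135 to 136 Mb of chromosome 6, with 9 wide peaks of 1025 to 1541 bp and folds of 1.46 to 2.09. This window lay 39.6 Mb or more from the chromosome end, and its first 6 wide peaks fell within 89.1 kb. All 9 overlapped an iPSC peak, against 89.2% of all wide ESC peaks and 18.2% of all ESC peaks. iPSC peaks covered 14.4 to 98.0% of their bases, and the iPSC list had 3 wide peaks in the same window. In iPSC the fullest windows held 10 wide peaks, at 0 to 1 Mb of chromosome 14 and at 165 to 166 Mb of chromosome 4. Of the 10 on chromosome 14, 6 covered no ESC peak, and of the 10 on chromosome 4, 1 covered none. Over all wide iPSC peaks this share was 34.2%, and over all iPSC peaks 33.7%. The counts per window are small and are no result about these windows.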

How the data were processed

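MeDIP and input libraries of baboon ESC and iPSC were grouped by their titles, and 1 deposited peak list per cell type was analysed. The submitters' processing notes name MACS2, SAMtools 1.10 and deepTools. Not given in the sources used here are the aligner, the genome build, the options of MACS2 and the way libraries were combined. Per the layout of the deposited lists, each peak has a start, an end, a summit offset in bp (other), a fold enrichment (a linear ratio), a −log10 p-value, a −log10 q-value and a score. The authors made all of these, and the score was not used.

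Wide peaks were rows with an end minus start of at least 1000 bp on numbered autosomes or unplaced scaffolds. The members and the comparisons were chosen with earlier results of these data known. Overlaps of at least 1 bp were counted with bedtools 2.31.1, and shares carry exact Clopper-Pearson 95% intervals. The end of the last peak in either list stood for the chromosome end. Positions are those of the lists, counted from 1, and no annotation of their build was used, so no gene is named. Read depth is not in the lists. Pileup and background were recovered from the deposited −log10 p-value, read as a Poisson tail, and the deposited fold, read as (pileup + 1) / (background + 1). The iPSC pileup carried a common factor of 0.690, chosen as the best fit. Only whole numbers of fragments were tried. For all peaks of both lists, the best of them gave the deposited −log10 p-value within 0.02. The steps were tested on simulated data. Calculations used Python 3.11.15 with scipy 1.17.1, pandas 2.3.3 and numpy 2.4.6, and figures matplotlib 3.10.9.

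Members are named by rule: the 5 widest of each list, the 3 covering most peaks of the other list, the 3 placed ones farthest from it, the 5 pairs sharing most bases, and the peaks nearest the threshold. Peaks just outside it, and windows, are described without a test. Alternatives were another width minimum, a stricter q, autosomes only, merging of close peaks, a stricter overlap, an ESC list as long as the iPSC list, and other distances from an end.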

Additional observations from a re-analysis of the deposited data

Results flagged for a closer look

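Chromosome X, which the choice of wide peaks leaves out, also held wide peaks, and they are singled out because they lie outside the main measurement. The ESC list had 11 of them among 4412 peaks there (0.249%, exact Clopper-Pearson 95% interval 0.125 to 0.446%), 1008 to 1547 bp wide, of which 2 overlapped an iPSC peak. The iPSC list had 25 among 601 (4.16%, 2.71 to 6.08%), 1021 to 2973 bp wide, of which 3 overlapped an ESC peak. Overlap over all chromosome X peaks was not computed, so these overlap counts have no background and are no result about wide peaks. Of the 25, 20 lay between 28 and 29 Mb, and the remaining 5 were 0.906% of the iPSC peaks elsewhere on the chromosome. None of the 11 ESC peaks lay in that window.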

How the results depend on the processing

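No paired analysis was possible because the peak lists hold no values per library, and for the same reason no replicate could be left out. Of 70 values under other settings, 39 stayed close to the reported value and 31 moved past their counting interval or by over 1.5 times. Causes were not tested. The number of wide peaks was 18 in ESC and 249 in iPSC at 1500 bp, 813 and 220 for the widest 0.5% of each list, and 453 in ESC with peaks within 200 bp merged. Overlap in ESC was 100% at 1500 bp, 81.6% for the widest 0.5% and 80.5% at a −log10 q of at least 5. In iPSC it was 69.5%, 70.0% and 35.3%, and 7.84% with the ESC list at the iPSC length. Summits in the other list were 94.4%, 73.9% and 74.2% in ESC under the first 3 of these settings. In iPSC they were 54.5% for the widest 0.5%, 24.3% at the stricter q and 5.63% with the shorter ESC list. Shares covering 2 or more were 33.3% at 1500 bp, 11.7% for the widest 0.5% and 14.1% merged in ESC. In iPSC they were 42.2%, 44.1% and 23.8%, with 7.69% at the stricter q and 0.442% with the shorter ESC list. At the stricter q, shares over all peaks of a list were not computed. The share near an end was 34.3% in ESC and 24.6% in iPSC within 2 Mb, and 57.7% in iPSC within 10 Mb. The iPSC summit place was 0.548 at 1500 bp and 0.547 for the widest 0.5%. Under alternatives chosen after seeing the data, the side bins minus the middle pair turned from −3.18 to 3.64 percentage points in ESC at 1500 bp (18 peaks) and was −8.36 away from chromosome ends and 1.32 within 5 Mb of one. In iPSC it stayed between 9.43 (within 5 Mb of an end) and 11.5 (away from the ends) except at the stricter q, where it was 3.74. Without values per library the depth behind a single sample is unknown.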
